A study of Mus musculus with 12 samples.

Results

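Dermal papilla (DP) cells of mice at postnatal day 14 (P14) were compared between 3 control and 3 Fgfr1/Fgfr2 double mutant (dMF1/2) libraries, which are 6 of the 12 libraries of the series. They were taken by their labels alone, and the comparison covers 13334 of the 15209 protein-coding genes in the P14 table. All animals were Mus musculus in the growth phase (anagen) of the first hair cycle, and no treatment was given. The dMF1/2 mice carried 1 copy of the Cor-cre driver and floxed alleles of Fgfr1 and Fgfr2 on both chromosomes (Cor-cre/+; Fgfr1Flox/Flox; Fgfr2Flox/Flox). Controls are labelled wild type, but the methods describe Cor-cre/+; Fgfr1Flox/+; Fgfr2Flox/+ or Cre-negative Fgfr1Flox/Flox; Fgfr2Flox/Flox mice. Cells were collected through a YFP reporter that depends on Cre, so a sorted control also carries the driver. Cor-cre is an allele of Corin that is active in the DP after birth, and a strain name was not given in the sources used here. The other 6 libraries are the same genotypes at P16, and they serve here only to show how the P14 genes behaved in other mice.

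The DP is a cluster of mesenchymal cells enclosed by the hair bulb, which sends signals to the matrix keratinocytes that build the hair shaft and sets how long a follicle grows. Fibroblast growth factors bind receptor tyrosine kinases, of which Fgfr1 and Fgfr2 are the receptors removed here, and the signal passes through RAS and ERK to transcription factors such as Etv1 and Etv5 and to feedback inhibitors such as the Sprouty and Spred proteins. R-spondins raise, and Notum and Dkk proteins lower, the response of a cell to Wnt ligands, the signals that maintain anagen.

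Libraries held 19302358 to 25824232 reads assigned to genes. Values are normalized reads, that is reads divided by a size factor for each library, so levels are compared between libraries and not between genes. The replicate 1 libraries of both genotypes stood apart from the other 4. Col1a1, the gene with the most reads, took 7.06% of reads in control replicate 1 and 9.15% in dMF1/2 replicate 1, against 16.4% to 17.1% elsewhere. The 17 DP markers together reached 11759 and 10926 CPM (reads scaled to a common library total) in the replicate 1 pair against 5056 to 6785 in the others, and the 12 dermal sheath markers 1337 and 1465 against 1983 to 2694. Among principal components drawn from the 500 genes with the largest variance, component 1 (40.5% of variance) followed the replicate number and its genotype ranges overlapped, while component 2 (28.5%) placed the controls at 3.46, 7.41 and 24.97 and the dMF1/2 libraries at -17.76, -9.10 and -8.98. DP markers were present in every library, with Corin at 20522 to 42082 and Enpp2 at 27183 to 54983 normalized reads, whereas keratinocyte, melanocyte, immune, Schwann cell and red cell marker lists each summed to at most 59.9 CPM in any library. Dermal fibroblast markers summed to 2637 to 3583, pericyte markers to 447 to 824, adipocyte markers to 284 to 380 and endothelial markers to 42.4 to 82.1 CPM. Fewer cells of a type and less RNA per cell cannot be told apart in such bulk libraries.

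The targeted receptors were still read in the mutant DP. Fgfr1 had 9981, 7745 and 8928 normalized reads in the controls and 7405, 6391 and 6398 in dMF1/2, so every mutant library lay below every control, but the difference (log2 fold change -0.40, SE 0.13) did not pass the test (adjusted p = 0.501 in limma, the linear model fitted across all genes, and 0.0691 with the replicate number as a block). Fgfr2 had 4940, 4484 and 4927 normalized reads in controls and 5190, 3669 and 4591 in dMF1/2, and the groups overlapped. The table gives 1 value for a whole gene, so reads from the part of each gene that Cre removes were not separated, and neither receptor serves as a check of the labels.

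How many genes differed depended on whether the replicate numbers were used. Without them, limma called 7 genes at an adjusted p below 0.05, 2 higher (0.015% of the genes tested) and 5 lower (0.0375%) in dMF1/2, and 976 genes had an unadjusted p below 0.05. Libraries that shared a replicate number deviated from their group means together, and with the replicate number as a block (the blocked fit) 224 genes were called, 88 higher (0.66%) and 136 lower (1.02%). Of these, 181 had groups that did not overlap (as had 12.7% of all genes tested), and 40 rises and 70 falls were beyond 2-fold. The median log2 fold change of the rises was 0.92 and that of the falls -1.01. When both replicate 1 libraries were left out, the blocked fit called 36 genes, 8 higher and 28 lower, of which 33 were among the 224. That fit holds fewer libraries, so a call lost there does not by itself mean a smaller difference. DESeq2 on whole reads without a block called 207 genes and shared 145 with the blocked fit, which is 64.7% of the blocked and 70.0% of the DESeq2 calls. The word rose or fell below is used of a gene that passed the fit named beside it, and log2 fold changes are on the scale of log2(normalized reads + 1).

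The 7 genes called by limma without a block were also called by the blocked fit, by DESeq2 and by edgeR. Ccdc3, which encodes a secreted coiled-coil protein (ENSMUSG00000026676, chr2:5137776-5230878, mm10), had 304, 322 and 328 normalized reads in the controls and 794, 850 and 769 in dMF1/2. It rose by a log2 fold change of 1.34 (SE 0.09, limma adjusted p = 0.0147). Hey2, a transcriptional repressor induced by Notch signals (chr10:30832359-30842801), had 321, 297 and 236 normalized reads in the controls and 941, 740 and 730 in dMF1/2. Every mutant library was above every control, and Hey2 rose by 1.5 (SE 0.16, limma adjusted p = 0.0474). The 5 falls were of a death receptor, a BMP family ligand, a kinesin and 2 cotransporters. Tnfrsf21, or death receptor 6 (chr17:43016555-43089188), had 2439, 2175 and 2815 normalized reads in the controls and 925, 929 and 840 in dMF1/2 (log2 fold change -1.46, SE 0.11, limma adjusted p = 0.0221). Bmp3, an antagonistic member of the BMP family (chr5:98854415-98884396), had 11372, 9449 and 10471 in the controls and 4024, 2653 and 2816 in the mutant (-1.74, SE 0.17, limma adjusted p = 0.0474).

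Both cotransporters carry sodium together with a second solute. Slc12a2, the sodium, potassium and chloride cotransporter NKCC1, had 2066, 2121 and 2484 normalized reads in the controls and 954, 1103 and 1044 in dMF1/2, a log2 fold change of -1.10 (SE 0.10, limma adjusted p = 0.0474). Slc5a3, the sodium and myo-inositol cotransporter (chr16:92058322-92087473), had 2742, 2991 and 2594 in the controls and 1431, 1154 and 1139 in dMF1/2 (-1.17, SE 0.12, limma adjusted p = 0.0474). It shares 159 of 10913 exon bases with Mrps6 on the same strand, a gene that fell in the blocked fit. Kif21b, a kinesin motor (chr1:136131389-136177998), had 494, 339 and 361 in the controls and 124, 121 and 93.3 in dMF1/2 (-1.80, SE 0.19, limma adjusted p = 0.0474). Across all 7 genes the genotype groups did not overlap, and the exact two-sided permutation test of each gave p = 0.1, the smallest that 3 against 3 libraries allow. Blocked adjusted p-values ran from 0.00117 to 0.0028, and without the replicate 1 pair 5 of the 7 were called, Slc12a2 (blocked adjusted p = 0.0517) and Kif21b (0.0607) being the exceptions. The calls changed when single libraries were left out, though fits of fewer libraries pass the threshold less readily. Leaving out any of control replicate 1, control replicate 3, dMF1/2 replicate 2 or dMF1/2 replicate 3 left none of the 7 called by limma without a block. Over the single omissions the log2 fold change of Ccdc3 lay between 1.30 and 1.37 and that of Bmp3 between -1.93 and -1.63. Leaving out control replicate 2 kept Ccdc3 and Tnfrsf21, and leaving out dMF1/2 replicate 1 kept Bmp3, Ccdc3 and Slc5a3.

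**Figure D1:**
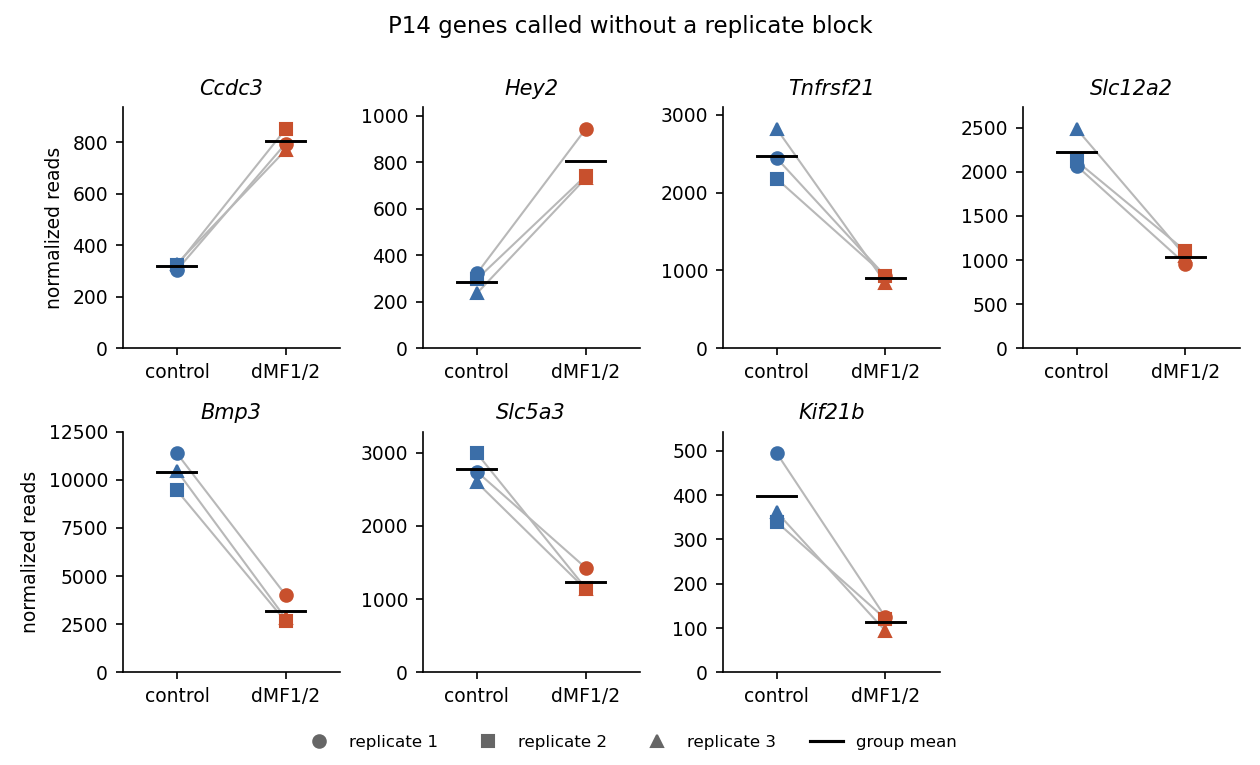
Normalized reads of the 7 genes called at P14 by limma without a block, in the 3 control (blue) and 3 dMF1/2 (orange) libraries; symbols mark the replicate number, grey lines join libraries with the same number and black bars are group means (n = 3). In each panel the control and mutant libraries do not overlap, as for Ccdc3, whose controls lie between 304 and 328 and whose mutants lie between 769 and 850.

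Promoter letters are shown for Hey2 and for the rise and the fall with the smallest p in limma without a block. Hey2 is a textbook target of RBPJ, the DNA-binding partner of Notch. They are from RefSeq (GRCm38.p6), read 5′ to 3′ on the strand of the gene, from 250 bases before to 10 bases after the gene's start in RefSeq, which for Hey2 lies inside the gene bounds given above. Capitals mark GTGGGAA, the core letters RBPJ binds, or its reverse complement TTCCCAC.
Hey2 (chr10:30842774-30843033, minus strand): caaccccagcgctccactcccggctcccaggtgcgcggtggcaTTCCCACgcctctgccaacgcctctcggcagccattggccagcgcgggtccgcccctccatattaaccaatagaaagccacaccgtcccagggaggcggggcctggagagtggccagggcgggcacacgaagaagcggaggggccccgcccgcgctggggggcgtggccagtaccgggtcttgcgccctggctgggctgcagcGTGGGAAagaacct
Ccdc3 (chr2:5137526-5137785, plus strand): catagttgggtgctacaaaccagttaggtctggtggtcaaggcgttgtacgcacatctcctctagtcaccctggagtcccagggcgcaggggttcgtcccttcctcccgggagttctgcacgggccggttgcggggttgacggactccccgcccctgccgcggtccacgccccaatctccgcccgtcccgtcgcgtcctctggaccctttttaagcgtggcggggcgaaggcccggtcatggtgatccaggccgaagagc
Tnfrsf21 (chr17:43016305-43016564, plus strand): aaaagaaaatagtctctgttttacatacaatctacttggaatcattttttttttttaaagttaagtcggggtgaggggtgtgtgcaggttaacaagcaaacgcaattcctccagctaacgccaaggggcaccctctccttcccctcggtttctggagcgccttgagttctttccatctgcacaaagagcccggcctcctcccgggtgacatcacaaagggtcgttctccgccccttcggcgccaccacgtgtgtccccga
The Hey2 window held these letters 2 times, starting at bases 44 and 247, and the Ccdc3 and Tnfrsf21 windows did not hold them. Over 300-base windows they occurred in 6.37% of the 13022 promoters matched to genes tested and 6.38% of all 32851 promoters of the table, in 3 of the 75 promoters matched to genes that rose in the blocked fit and in 14 of the 125 matched to genes that fell. The TCF/LEF letters CTTTGA on either strand were in 7 of the 75 and 16 of the 125, against 11.7% of promoters of genes tested and 16% of all promoters. The ETS letters CCGGAA were in 6 of the 75 and 14 of the 125, against 25.3% of promoters of genes tested and 14.9% of all. None of the 3 windows printed held CTTTGA or CCGGAA. Promoters were found for 59 of the 88 rises and 97 of the 136 falls, and a match of letters is a description, not a binding site.

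The 15 largest rises and 15 largest falls of the blocked fit were taken among genes whose groups did not overlap, so the lack of overlap is set by the choice. Npy4r, the receptor for pancreatic polypeptide, had 80.1, 163 and 41.0 normalized reads in the controls and 1887, 1332 and 909 in dMF1/2, a log2 fold change of 4.0 (SE 0.49, limma adjusted p = 0.0826, blocked adjusted p = 0.0014). Sst, which encodes the peptide hormone somatostatin, had 12.1, 4.29 and 1.95 against 146, 35.2 and 55.5 (3.51, blocked adjusted p = 0.00645). Pdyn, the precursor of the dynorphin opioid peptides, had 54.0, 19.3 and 22.4 against 476, 180 and 194 (3.11, blocked adjusted p = 0.00117). Each of these encodes a neuropeptide or a peptide receptor. Cacng5, an auxiliary subunit of AMPA-type glutamate receptors, had the largest fold change of the rises named, from 9.32, 15 and 1.95 to 160, 300 and 147 (4.61, blocked adjusted p = 0.00176). Scube1, a secreted and cell surface glycoprotein that modulates Hedgehog signals, had the most reads of the 15, with 2292, 3110 and 1267 in the controls and 11503, 7339 and 6407 in dMF1/2 (1.97, blocked adjusted p = 0.00592).

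The other 9 of these rises that did not pass limma without a block, of which DESeq2 called all but Cldn9, had log2 fold changes between 1.47 (Cldn9, a claudin of tight junctions) and 3.16 (Fam196b). They include Slc5a7, the choline transporter, at 48.4, 38.6 and 20.5 normalized reads in the controls and 188, 133 and 124 in dMF1/2 (2.08, blocked adjusted p = 0.00541). Grin2b, an NMDA-type glutamate receptor subunit, had 114, 60.0 and 54.6 in the controls and 325, 187 and 212 in dMF1/2 (1.69, blocked adjusted p = 0.00315). Snap91, a clathrin assembly protein of synapses, had 442, 507 and 185 against 1652, 950 and 1276 (1.86, blocked adjusted p = 0.0277). Trim67, Lypd1, Lrrn2 and Slc35f1 made up the rest, and the 15th was Hey2. Schwann cell markers, the glial list at hand, summed to 8.4 to 28.1 CPM in the controls and 9.1 to 19.0 in dMF1/2, with none of the 4 tested called. Without the replicate 1 pair, Cacng5 (blocked adjusted p = 0.043), Npy4r (0.0474), Pdyn (0.0321) and Hey2 (0.043) were still called among these 15.

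The 15 largest falls are given by what their products do. Slc26a7, a chloride and bicarbonate exchanger, had 1642, 2440 and 2543 normalized reads in the controls and 292, 69.3 and 88.9 in dMF1/2, a log2 fold change of -4.14 (SE 0.51, limma adjusted p = 0.0826, blocked adjusted p = 0.0063, and 0.00245 without the replicate 1 pair). Trpc4, a cation channel, had 66.1, 12.9 and 276 against 2.52, 1.07 and 4.44 (-4.22, blocked adjusted p = 0.0146). Slc12a1, the cotransporter NKCC2, had 375, 332 and 778 against 69.8, 48.0 and 91.1 (-2.75, blocked adjusted p = 0.00117, and 0.0152 without the replicate 1 pair). The controls of Trpc4 spread widely. Avpr1a, the vasopressin V1a receptor, had 3066, 1134 and 3102 in the controls and 756, 250 and 327 in dMF1/2 (-2.48, blocked adjusted p = 0.00315). Ptgir, the prostacyclin receptor, had 839, 451 and 1166 against 285, 129 and 180 (-2.01, blocked adjusted p = 0.00541).

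Agouti (symbol a in the files), the DP signal that switches melanocytes of the follicle to yellow pigment, had 393, 98.6 and 550 normalized reads in the controls and 22.7, 11.7 and 16.7 in dMF1/2. Its log2 fold change was -4.0 (SE 0.62, limma adjusted p = 0.135, blocked adjusted p = 0.00315), and 147 of its 1169 exon bases are shared with Raly on the same strand. Mc5r, a melanocortin receptor, fell in the blocked fit as well (log2 fold change -1.76). The melanocyte marker list summed to 2.9 to 5.2 CPM in the controls and 3.0 to 5.1 in dMF1/2.

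The next falls are of a secreted protein and 3 enzymes or enzyme subunits. Lcn2, a lipocalin that binds iron carriers of bacteria, had 186, 54.7 and 198 normalized reads in the controls and 16, 7.47 and 6.67 in dMF1/2 (log2 fold change -3.63, blocked adjusted p = 0.00592). Plcg2, a phospholipase C, had 154, 107 and 282 against 26.1, 18.1 and 22.2 (-2.87, blocked adjusted p = 0.00351). Ncf1, a subunit of the phagocyte NADPH oxidase, had 40.1, 12.9 and 66.3 against 9.25, 2.13 and 4.44 (-2.59, blocked adjusted p = 0.0427), and Cd38, an NAD-consuming enzyme, had 310, 99.7 and 211 against 84.1, 13.9 and 63.3 (-2.12, blocked adjusted p = 0.00645). Immune markers summed to 9.6 to 12.3 CPM in the controls and 8.5 to 14.3 in dMF1/2, so the marker levels of the groups overlapped, and none of the 3 tested was called. Hapln2, Gmnc and Cmtm8 were also among the 15 falls, with log2 fold changes of -2.45, -2.08 and -2.01. Of the falls named, DESeq2 called all but Cd38 (adjusted p = 0.052) and Hapln2 (0.0625), and limma without a block called none. Slc26a7, Slc12a1 and Avpr1a (blocked adjusted p = 0.0496) were the 3 of the 15 falls still called without the replicate 1 pair.

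**Figure D2:**
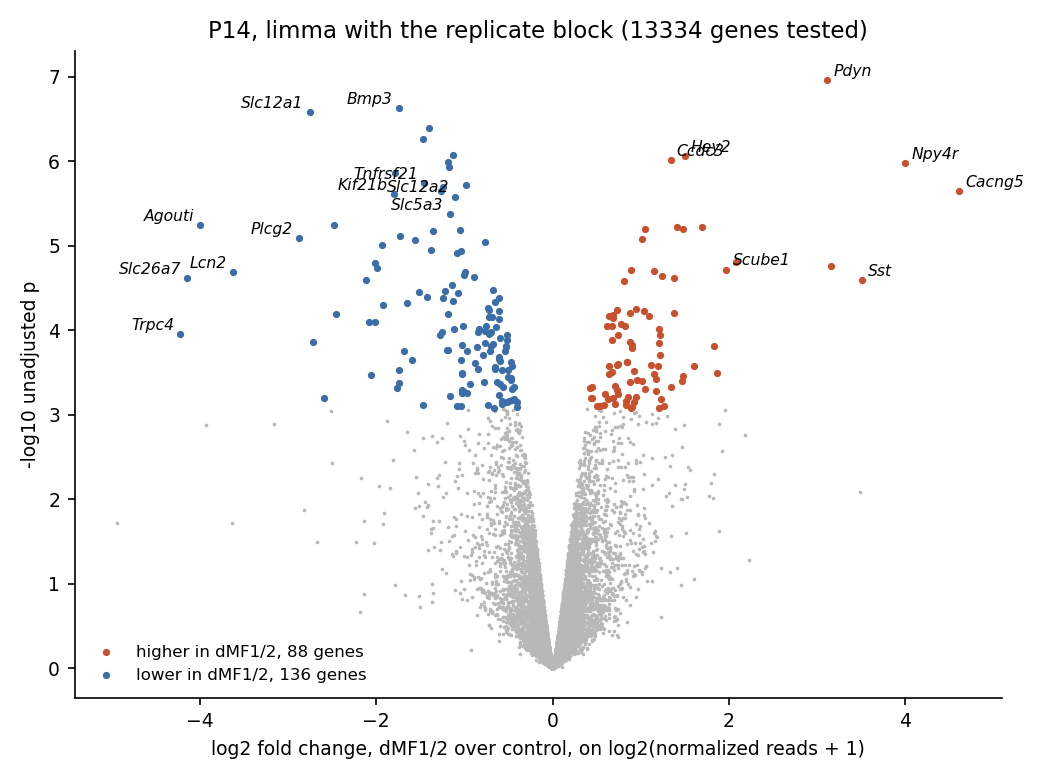
Log2 fold change at P14 (x axis, dMF1/2 over control) against -log10 of the unadjusted p (y axis) for 13334 genes in limma with the replicate block; orange and blue points are the 88 genes higher and the 136 lower in dMF1/2 at an adjusted p below 0.05. Npy4r and Cacng5 lie farthest to the right, at 4.0 and 4.61, and Trpc4 and Slc26a7 farthest to the left among the called genes, at -4.22 and -4.14.

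Wnt pathway genes were followed from ligands and agonists to antagonists and receptors. No gene of the Wnt lists passed limma without the block, whereas DESeq2 without a block called 2 ligands or R-spondins higher, 2 antagonists lower and 2 receptors or transducers in each direction. In the blocked fit 4 of 18 R-spondins and Wnt ligands rose and none fell, with a median log2 fold change of 0.12 over the list against 0.0048 over all genes tested. That fit called 0.66% of all genes tested higher and 1.02% lower. Wnt5a, a ligand that mainly acts outside beta-catenin, had 3080, 4110 and 3696 normalized reads in the controls and 5362, 5934 and 6675 in dMF1/2 (log2 fold change 0.73, SE 0.14, limma adjusted p = 0.221, blocked adjusted p = 0.011). Its relative Wnt5b had 541, 754 and 450 against 859, 1082 and 803 (0.67, blocked adjusted p = 0.016). Ndp, or Norrin, a ligand of Fzd4, had 279, 223 and 185 against 448, 389 and 427 (0.89, blocked adjusted p = 0.0179). Control and mutant libraries did not overlap for these 3 ligands.

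Of the R-spondins, Rspo2 passed the blocked fit and the other 3 did not. Rspo2 had 4012, 2450 and 2044 normalized reads in the controls and 6177, 3426 and 3389 in dMF1/2 (log2 fold change 0.61, SE 0.31, limma adjusted p = 0.794, blocked adjusted p = 0.0131). The groups overlapped, since control replicate 1 was above mutant replicates 2 and 3, while each mutant library exceeded the control of the same number. Rspo3 had 8186, 5546 and 3759 in the controls and 15893, 6270 and 8778 in dMF1/2 (0.79, SE 0.39, blocked adjusted p = 0.0981). Rspo1 had 3694, 2902 and 2888 against 4753, 2838 and 3560 (0.21, blocked adjusted p = 0.411), and Rspo4 had 29352, 22079 and 15266 against 25909, 13956 and 16416 (-0.25, blocked adjusted p = 0.553). Without the replicate 1 pair none of the 18 agonists and ligands was called, Rspo2 having a blocked adjusted p of 0.143. In that smaller fit the log2 fold changes of Rspo2, Wnt5a, Wnt5b and Ndp were 0.61, 0.69, 0.68 and 1.0.

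Of 16 Wnt antagonists 3 fell and none rose in the blocked fit (over all genes tested 1.02% fell and 0.66% rose). The same 3 were called without the replicate 1 pair. Notum, an enzyme that removes the lipid from Wnt ligands, had 7337, 3010 and 7272 normalized reads in the controls and 2308, 1060 and 1611 in dMF1/2 (log2 fold change -1.78, SE 0.41, limma adjusted p = 0.29, blocked adjusted p = 0.00154). Dkk2, which blocks the Lrp co-receptors, had 10579, 8202 and 13870 against 4764, 3704 and 4883 (-1.27, SE 0.21, limma adjusted p = 0.146, blocked adjusted p = 0.00176). Draxin, a guidance cue that also binds Lrp co-receptors, had 1988, 1084 and 1221 against 1379, 418 and 522 (-1.04, blocked adjusted p = 0.0226). For Notum and Dkk2 every mutant library was below every control, and for Draxin mutant replicate 1 was above 2 controls. The list as a whole had 8 members above and 8 below 0 and a median of -0.04.

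Among 50 Wnt receptors and transducers, 2 rose and 5 fell in the blocked fit, and the median log2 fold change was 0.02. Shares over all genes tested were 0.66% higher and 1.02% lower. Fzd10, a receptor, had 1117, 884 and 593 normalized reads in the controls and 2035, 1831 and 1398 in dMF1/2 (1.05, blocked adjusted p = 0.00315). Fzd1, another receptor, had 8010, 8219 and 8260 against 5380, 5830 and 5776 (-0.53, blocked adjusted p = 0.0173), so that all 3 mutant libraries lay in a narrow range under the controls. Tcf7, a transcription factor that joins beta-catenin on DNA, had 1231, 1186 and 1392 against 582, 723 and 761 (-0.89, blocked adjusted p = 0.00627). Nkd1, a feedback inhibitor, had 4294, 3264 and 3615 against 3025, 2258 and 2510 (-0.52, blocked adjusted p = 0.0146). Lgr4, an R-spondin receptor, was the second rise (log2 fold change 0.63), and Tle4 and Vangl1 were the remaining falls. Of these 7 calls Fzd10 alone was kept without the replicate 1 pair (blocked adjusted p = 0.043). The blocked adjusted p-values of Tcf7, Nkd1 and Fzd1 were then 0.087, 0.125 and 0.14, with log2 fold changes of -0.79, -0.53 and -0.51.

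**Figure D3:**
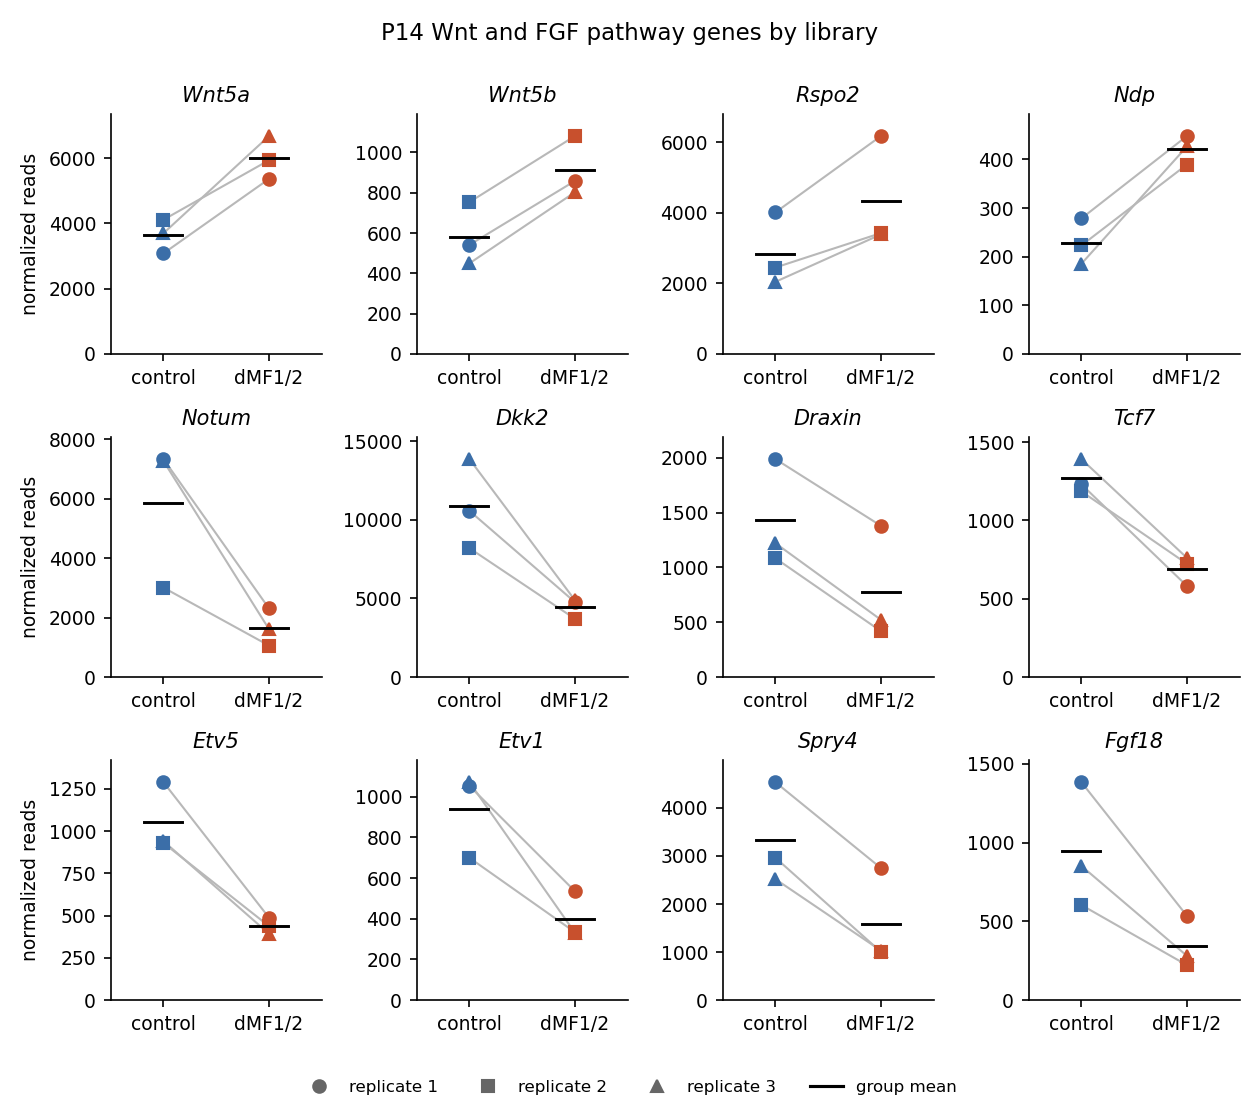
Normalized reads at P14 of 8 Wnt and 4 FGF pathway genes by library, drawn as in the plot of the 7 genes (n = 3 for each genotype; bars are group means). Lines join libraries with the same replicate number, and each line of Wnt5a, Wnt5b, Rspo2 and Ndp goes up while each line of the other 8 genes goes down, with the genotype ranges overlapping for Rspo2, Draxin and Spry4.

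Some target genes of FGF receptor signalling fell in the blocked fit. Of 34 feedback and target genes of the FGF and ERK pathway, 5 fell and none rose, 26 had a negative log2 fold change and the median was -0.23, with 0 called by limma without a block and 4 called lower by DESeq2. Over all 13334 genes tested 6492 were negative, and the blocked fit called 0.66% higher and 1.02% lower. Etv5, an ETS transcription factor induced by ERK, had 1288, 930 and 940 normalized reads in the controls and 488, 437 and 392 in dMF1/2 (log2 fold change -1.25, SE 0.15, limma adjusted p = 0.0826, blocked adjusted p = 0.00176, and 0.043 without the replicate 1 pair). Its relative Etv1 had 1054, 700 and 1072 against 535, 334 and 331 (-1.24, SE 0.24, blocked adjusted p = 0.00879). Both sets of mutant libraries lay below all controls. Of the feedback inhibitors, Spry4 had 4535, 2963 and 2518 against 2748, 1003 and 1031 (-1.19, blocked adjusted p = 0.0113) with overlap from mutant replicate 1, and Spred2 had 2030, 1534 and 1709 against 1394, 990 and 1076 (-0.61, blocked adjusted p = 0.011). The ERK phosphatase Dusp4 was the fifth fall (log2 fold change -0.97). Besides Etv5, Spry4 was called without the replicate 1 pair (0.0321), and Etv1 (0.0985), Spred2 (0.1) and Dusp4 (0.14) were not, so that 2 of the 5 calls were kept. In that smaller fit the log2 fold changes of Etv1 and Spred2 were -1.38 and -0.65.

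The size of this list's difference varied between the replicate numbers, with medians of -0.10, -0.10 and -0.58 in pairs 1, 2 and 3. Immediate early and dissociation stress genes, which ERK also induces, had medians of 0.22, -0.07 and -0.55 in the same pairs, with 1 of 32 lower in the blocked fit (Nr4a2, an orphan nuclear receptor, at 545, 286 and 678 normalized reads against 152, 198 and 164, and not called without the replicate 1 pair) and 25 negative. Over all 13334 genes tested 6492 were negative. The part of the stress genes in the FGF and ERK values was not tested. Among 28 FGF ligands, receptors and co-receptors, Fgf18, a ligand, was the single call, with 1382, 604 and 852 in the controls and 535, 222 and 281 in dMF1/2 (log2 fold change -1.47, SE 0.39, limma adjusted p = 0.373, blocked adjusted p = 0.0014, and 0.0321 without the replicate 1 pair). The mutant libraries of Fgf18 were all below the controls.

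In the BMP list, 1 of 22 ligands and antagonists rose and 2 fell in the blocked fit, against 0.66% and 1.02% of all genes tested. Bmp6 had 1865, 1917 and 1048 normalized reads in the controls and 2762, 2885 and 2673 in dMF1/2 (log2 fold change 0.84, blocked adjusted p = 0.0481). Bmp2 had 3260, 2214 and 2476 against 2437, 829 and 1091 (-1.01, blocked adjusted p = 0.0382), with mutant replicate 1 inside the control range. Leaving out the replicate 1 pair kept Bmp2 and Bmp3 but not Bmp6. Beside Bmp3, already given, the downstream genes were not called, since 0 of 21 BMP receptors, Smads and Id genes passed in the blocked fit, limma or DESeq2, and none had an unadjusted limma p below 0.05. Of 20 TGF-beta and activin genes none passed in the blocked fit (2 had an unadjusted limma p below 0.05), while DESeq2 called Ltbp1, a latent TGF-beta binding protein (log2 fold change 0.70, blocked adjusted p = 0.0526), and Tgfb1 (-0.73, blocked adjusted p = 0.0733).

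In the Notch list, 2 of 28 genes passed the blocked fit, in which 0.66% of all genes tested rose and 1.02% fell. Hey2 was described above, and Jag2, a ligand, had 73.6, 33.2 and 91.7 normalized reads in the controls and 20.2, 11.7 and 25.5 in dMF1/2 (log2 fold change -1.68, blocked adjusted p = 0.0187), so that the target rose and the ligand fell. The median of the list was -0.07. Among 16 Hedgehog genes 3 rose and none fell in the blocked fit, and the median was 0.11. DESeq2 called 1 higher and 1 lower, and 3 members lay wholly above and 2 wholly below the controls. Besides Scube1 these were Scube3, a secreted relative of it, at 27296, 19298 and 11968 against 56198, 28198 and 34894 (1.04, blocked adjusted p = 0.0358), and Gli1, a target and effector of the pathway, at 1711, 1201 and 1037 against 2374, 1624 and 1908 (0.60, blocked adjusted p = 0.0401). Scube3 and Gli1 were not called by DESeq2 (adjusted p = 0.11 and 0.358). Without the replicate 1 pair none of the 3 Hedgehog rises was called. Among 17 IGF genes 2 fell and none rose in the blocked fit, namely Pappa2, a protease that frees IGF from its binding proteins, at 12446, 11237 and 14049 against 7238, 4051 and 5294 (-1.22, blocked adjusted p = 0.00798), and Stc1, an inhibitor of such proteases, at 176, 253 and 304 against 84.1, 150 and 126 (-1.02, blocked adjusted p = 0.0173). Hey2 and Pappa2 were called without that pair, and Jag2 and Stc1 were not.

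Neuropeptides and their receptors had 4 rises and 1 fall among 26 tested in the blocked fit and a median log2 fold change of 0.23. For this and the next lists, the shares over all genes tested were 0.66% higher and 1.02% lower. The rises were Npy4r, Sst, Pdyn and Gpr165, an orphan receptor at 311, 607 and 283 normalized reads in the controls and 912, 988 and 723 in dMF1/2 (1.20, blocked adjusted p = 0.0136), and the fall was Mc5r. Avpr1a, the vasopressin receptor that fell, is outside this list and is not in its count. Solute and ion cotransport genes had 3 falls (Slc12a2, Slc5a3 and Slc12a1) and no rise among 34, with a median of -0.04. Among 53 ion channels 1 rose and 3 fell in the blocked fit, while DESeq2 called 2 in each direction. The channel list had 33 positive and 20 negative members and a median of 0.12. Cacna1g, a T-type calcium channel, had 1748, 2666 and 2062 in the controls and 3109, 3486 and 3362 in dMF1/2 (0.64, blocked adjusted p = 0.0246), and Trpv4, an osmotically gated cation channel, had 404, 205 and 224 against 133, 118 and 98.9 (-1.19, blocked adjusted p = 0.0185). The remaining fall beside Trpc4 was Kcnn3, a potassium channel (-0.75). Kinesins had 2 falls among 27 in the blocked fit, Kif21b and its paralog Kif21a, which had 139, 300 and 372 against 83.2, 92.8 and 209 (-1.08, blocked adjusted p = 0.0481). In the blocked fit without the replicate 1 pair, Npy4r, Pdyn, Slc5a3 and Slc12a1 were the calls left in these 4 lists.

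Matrix genes moved in both directions. Tnc, the matricellular protein tenascin C, had 2651, 996 and 2767 normalized reads in the controls and 737, 424 and 633 in dMF1/2 (log2 fold change -1.73, SE 0.41, limma adjusted p = 0.301, blocked adjusted p = 0.00351). Spock1, a proteoglycan, had 179, 283 and 169 against 522, 431 and 462 (1.20, blocked adjusted p = 0.0246), and Sparcl1, a relative of SPARC, rose as well in the blocked fit (0.70). In that list of 54 the count was 2 rises and 2 falls, where 0.66% of all genes tested rose and 1.02% fell. Of 40 collagens only Col13a1, a transmembrane collagen, was called in the blocked fit, with 5226, 3357 and 4612 against 3158, 1219 and 1980 (-1.14, blocked adjusted p = 0.00944, and 0.0321 without the replicate 1 pair). Among 49 MMP, ADAM, ADAMTS and TIMP genes 1 rose (Adamts18, 0.68) and 3 fell (Adamts7, -1.13, Adamts4, -0.74, and Mmp3, -0.67), and among 35 integrins, laminins and basement membrane genes 1 rose (Fras1, 0.64) and 2 fell (Agrn, -0.46, and Itga8, -0.43). Besides Col13a1, Adamts7 was the matrix gene still called without the replicate 1 pair.

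Axon guidance genes, whose products also steer other migrating cells, had 2 rises and 3 falls among 59 in the blocked fit. For this and the next lists, 0.66% of all genes tested rose and 1.02% fell. Sema5a had 10844, 5302 and 16928 normalized reads in the controls and 2770, 2331 and 2737 in dMF1/2 (log2 fold change -1.93, SE 0.38, blocked adjusted p = 0.0101), and the controls spread more widely than the mutants. Sema6d had 2717, 1874 and 2668 against 1242, 874 and 1063 (-1.19, blocked adjusted p = 0.0014). The netrin receptors differed in direction, with Dcc at 687, 623 and 301 against 1298, 1051 and 1024 (1.14, blocked adjusted p = 0.0277) and Unc5b at 2790, 1839 and 3206 against 1230, 1287 and 1363 (-0.98, blocked adjusted p = 0.0185). Among 44 PDGF, VEGF, HGF, EGF, neurotrophin and KIT genes, Ednra, an endothelin receptor, rose (0.42) and Nrp2, a semaphorin and VEGF co-receptor, fell (-0.54) in the blocked fit. Chemokine and interleukin genes had 1 rise, Cxcr4 (0.74), and 3 falls, Il1rap (-0.61), Il17ra (-0.59) and Il6ra (-0.71), among 48. Sema6d was the one of these genes still called when the replicate 1 pair was left out (blocked adjusted p = 0.0377).

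Genes of survival, retinoid handling and cell identity were called in small numbers in the blocked fit, where 0.66% of all genes tested rose and 1.02% fell. Bcl2, an inhibitor of apoptosis, had 2210, 1987 and 3164 normalized reads in the controls and 1424, 1220 and 1352 in dMF1/2 (log2 fold change -0.85, blocked adjusted p = 0.0175) and was the single call of 14 BCL2 family genes. Tnfrsf11b, the decoy receptor osteoprotegerin, fell beside Tnfrsf21 (-0.88, blocked adjusted p = 0.0235) among 19 of that superfamily. Aldh1a3, an enzyme that makes retinoic acid, had 320, 419 and 128 against 543, 942 and 417 (1.21, blocked adjusted p = 0.0169). Of 65 developmental transcription factors outside Hox, 1 rose and 2 fell in the blocked fit, and DESeq2 called 2 in each direction. Prdm1 fell from 3447, 1774 and 3717 to 1524, 647 and 739 (-1.65, blocked adjusted p = 0.00967). Sox4 fell from 4384, 2809 and 3049 to 2643, 1630 and 1786 (-0.76, blocked adjusted p = 0.00365). Of the genes named here, Tnfrsf21 was called without the replicate 1 pair and Bcl2, Tnfrsf11b, Aldh1a3, Prdm1 and Sox4 were not.

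The DP marker list itself had 1 rise and 2 falls among 17 in the blocked fit (0.66% and 1.02% of all genes tested). Its median log2 fold change was 0.08. Alpl, the alkaline phosphatase by which the DP is stained, had 1455, 1139 and 688 normalized reads in the controls and 3767, 2443 and 2342 in dMF1/2 (1.41, SE 0.30, limma adjusted p = 0.258, blocked adjusted p = 0.00315). Crabp1, a retinoic acid carrier, had 10777, 6123 and 7599 against 5284, 2552 and 3221 (-1.18, blocked adjusted p = 0.00142), and Vcan, the proteoglycan versican, had 21433, 26026 and 22459 against 14313, 15964 and 15575 (-0.61, blocked adjusted p = 0.0223). All 3 had groups that did not overlap, and Crabp1 was the one still called without the replicate 1 pair. Corin had 38723, 30193 and 20522 in the controls and 42082, 20930 and 24032 in dMF1/2, a log2 fold change of -0.06 (SE 0.33). Of 12 dermal sheath markers Itga8 alone passed the blocked fit, its groups overlapped, and the call was lost without that pair. Summed sheath marker levels were 1337 to 2694 CPM in the controls and 1465 to 2453 in dMF1/2.

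No gene was called in the blocked fit among 39 cell cycle, 19 circadian clock, 26 Hox, 18 MHC class I, 28 glycolysis and hypoxia, 31 cholesterol and fatty acid, 32 endoplasmic reticulum stress, 60 respiratory chain and 20 zinc transport genes, nor in limma without a block or in DESeq2. Unadjusted limma p-values below 0.05 numbered 0 in the cell cycle, MHC, respiratory chain and zinc lists, 1 in the clock and the cholesterol lists, 2 in the endoplasmic reticulum list, 3 in the Hox list and 5 in the glycolysis list. Over all 13334 genes tested 976 had such a p. In the glycolysis list 22 of 28 members were negative (6492 of 13334 over all genes), and the median was -0.15 against 0.0048 over all genes. Fibroblast, keratinocyte, melanocyte, endothelial, pericyte, immune, muscle, adipocyte and Schwann cell markers likewise had no call in any of the 3 fits, with unadjusted limma p-values below 0.05 for 1 fibroblast marker (Dpp4) and 1 pericyte marker (Cspg4), and the 3 red cell markers in the table were below the level tested.

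**Figure D4:**
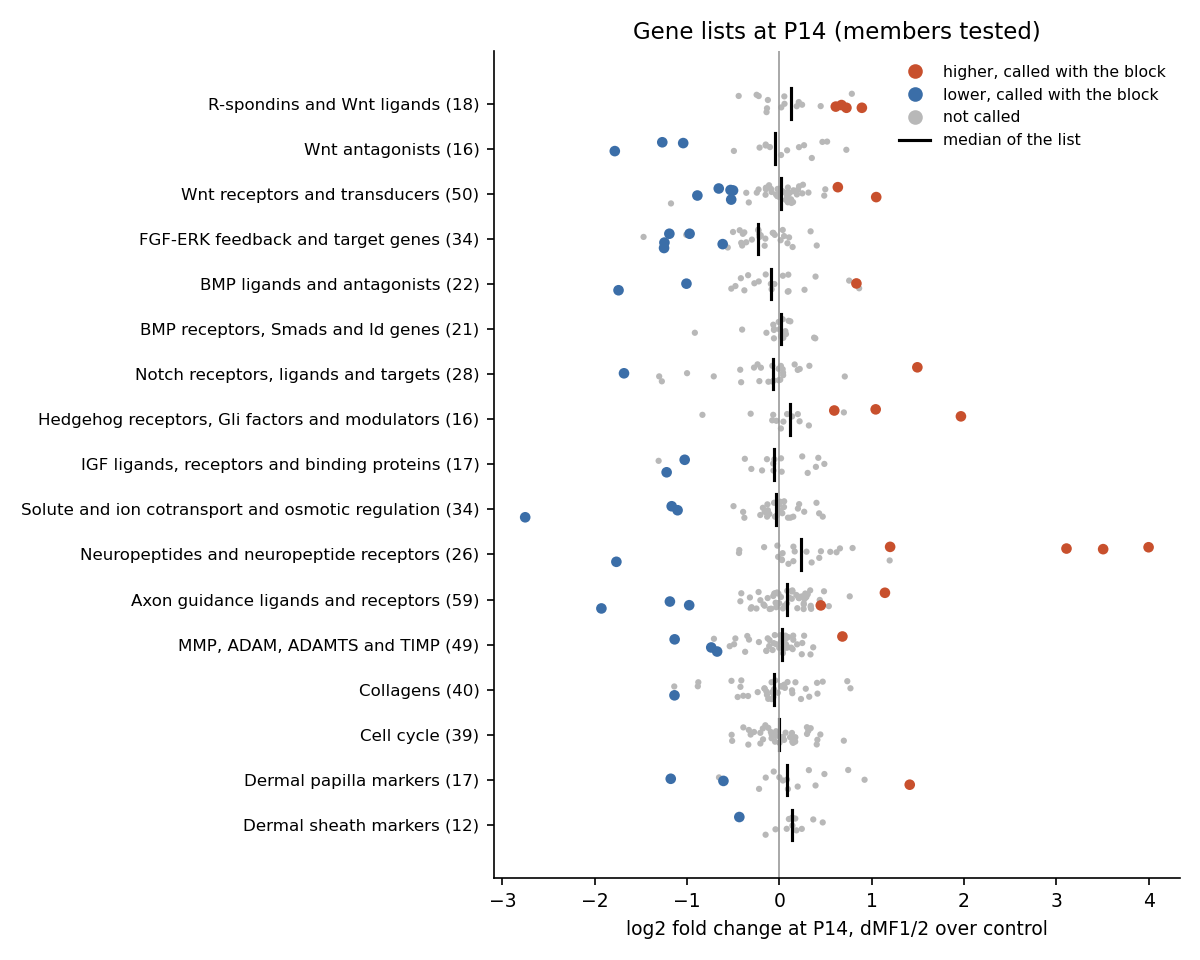
Log2 fold change at P14 (x axis, dMF1/2 over control) of each tested member of 17 gene lists (rows, number tested in parentheses); orange and blue points passed limma with the replicate block, grey points did not, and black bars are list medians. The called FGF and ERK genes and Wnt antagonists all lie left of 0, the called R-spondins, Wnt ligands and Hedgehog genes right of it, and the bar of the FGF and ERK list, at -0.23, is the lowest of the 17.

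The genes called at P14 were then read in the 6 P16 libraries, which come from other mice and took no part in calling them. All 7 genes called by limma without a block had the same sign at P16, and 6 of them were called there, where limma called 2.18% of genes higher and 2.14% lower. Bmp3 was the exception (P16 log2 fold change -1.13, adjusted p = 0.0668). Of the 88 genes that rose in the blocked fit at P14, 86 were higher at P16 (97.7%, against 64.3% of all genes with a positive P14 value) and 51 were called higher (58.0%, against 4.14%). Of the 136 that fell, 112 were lower at P16 (82.4%, against 66.3%) and 40 were called lower (29.4%, against 4.27%). None was called in the opposite direction at P16. The median of the rises went from 0.92 at P14 to 1.18 at P16, and that of the falls from -1.01 to -0.58.

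Rspo2, Rspo3 and Scube3 had larger log2 fold changes at P16 than at P14. Rspo2 had a log2 fold change of 0.61 at P14 and 3.03 at P16 (P16 adjusted p = 0.00604), and its P16 levels were 213, 544 and 548 normalized reads in the controls and 3070, 2710 and 4169 in dMF1/2. Rspo3 went from 0.79 to 3.20 (P16 adjusted p = 0.00502), and Scube3 from 1.04 to 2.88 (P16 adjusted p = 0.00154). In these 3 genes the mutant libraries at P16 were each above all the controls. The 17 DP markers moved with them, with a median log2 fold change of 0.86 at P16 against 0.08 at P14, 4 called higher and 1 lower at P16, and Corin at 1.73 (SE 0.49, P16 adjusted p = 0.0938), and their part in these values was not tested. Fgf18, Fzd1, Cd38, Gmnc and Col13a1, all lower at P14 in the blocked fit, were not called at P16. Fgf18 had a P16 log2 fold change of 0.00, with 273, 504 and 634 in the controls and 631, 298 and 461 in dMF1/2, and Fzd1 one of 0.02. Cd38 went from -2.12 to 0.43, Gmnc from -2.08 to 0.89 and Col13a1 from -1.14 to 0.18. A test of the difference between the days over all 12 libraries (interaction in limma) called 0 of 13415 genes, with 648 at an unadjusted p below 0.05 and 7 called by DESeq2. For Rspo2 that test gave an unadjusted p of 0.000815 (adjusted p = 1), for Scube3 0.00161 and for Fgf18 0.0304, and it uses the same P14 values by which the genes were called.

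**Figure D5:**
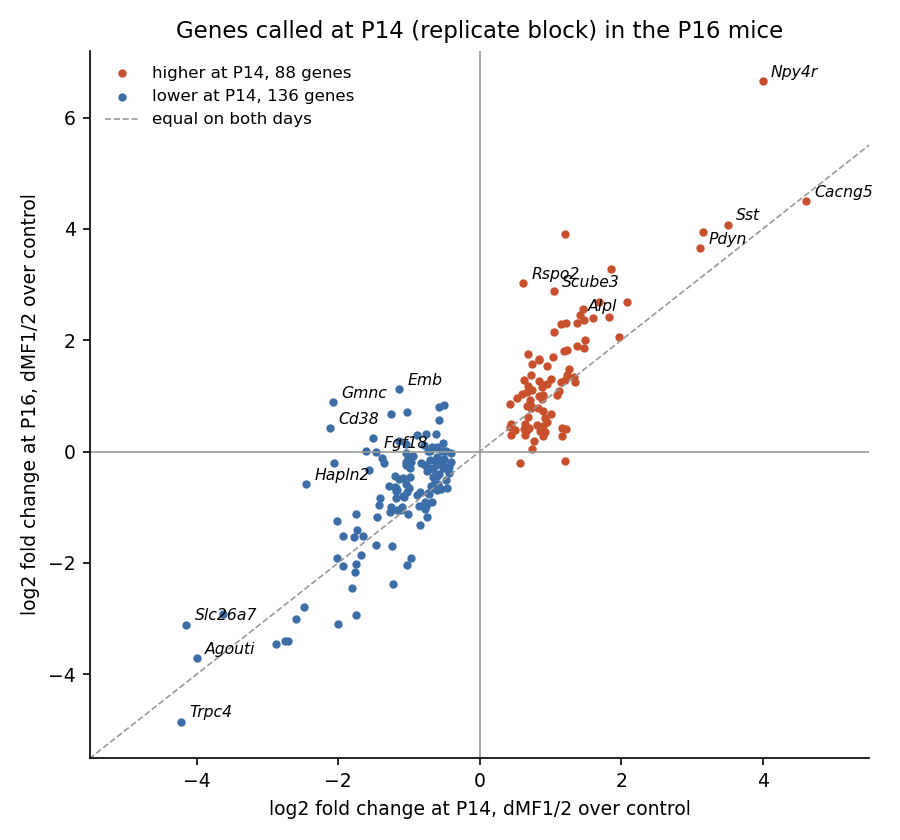
Log2 fold change (dMF1/2 over control) at P14 (x axis) and at P16 (y axis) of the 224 genes called at P14 with the replicate block, orange for the 88 higher and blue for the 136 lower at P14; the dashed line marks equal values. The rises lie above 0 at P16 except for 2, whereas 24 of the falls, Cd38 and Gmnc among them, lie at or above 0.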

How the data were processed

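RNA of FACS-sorted YFP-positive DP cells was sequenced from ribosome-depleted directional libraries. Per the labels, the authors used Trimmomatic, TopHat2, HTSeq and DESeq2 with the mm10 build (GRCm38.p4), and the annotation release is not given in the sources used here. The deposited signal values, made by the authors, are gene counts divided by DESeq2 size factors, separately for each day, for protein-coding genes with at least 12 reads in all. They gave whole reads for 100% of values (tolerance 0.001), and P14 libraries held 19302358 to 25824232 reads. The authors' fold change and p columns were not used, and 0 columns belonged to samples outside the series.

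Tests covered genes averaging 10 or more normalized reads, by limma 3.58.1 (R 4.3.3) on log2(value + 1) with the mean-variance trend, by genotype, with Benjamini-Hochberg adjustment over all genes at 0.05. The study compared the genotypes with DESeq2, which is given here as an alternative, and P16 was fitted in the same way. The interaction used 12 libraries rescaled together by medians of ratios. DESeq2 1.42.0 and edgeR 4.0.16 ran on recovered reads. The scripts were tested on simulated data. Samples with the same replicate number came from titles, not from stated litters. Their deviations from group means correlated at 0.586, 0.389 and 0.304, against -0.427 to 0.0975 for other pairs, so the block is given beside results. Each library is described by the study as the DP of a single mouse, so p-values without the block measure the spread between mice. Those of the blocked fit measure the spread of genotype differences within replicate numbers, after the spread between numbers is removed.

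Genes named were the 2 targets, all limma calls, the 15 largest rises and falls of the blocked fit with a mean of at least 1 CPM and no overlap, up to 4 called members of each of 48 lists (otherwise 2 by p), 6 genes the study followed and the 3 most abundant of each marker list. Dusp4, Mc5r, Lgr4, Tle4, Vangl1 and Mrps6 were named after their values were seen. The genes and lists were chosen with earlier results of these data known. A few genes are not reported here.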

Additional observations from a re-analysis of the deposited data

How the results depend on the processing

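The number of P14 calls depended on the model more than on scaling or filters. Against 7 calls, limma with the replicate block gave 224, DESeq2 207, DESeq2 with the block 363 and edgeR with the block 245. TMM and upper-quartile scaling with the block, both chosen after seeing the data, gave 233 and 252, and all 12 libraries in 1 fit gave 11. Leaving out single libraries gave 0 to 18 calls without the block, and leaving out a replicate number gave 36, 621 and 272 with it (without replicates 1, 2 and 3). edgeR, TMM scaling, both pseudocounts, no filter and a minimum of 10 reads gave 7 to 10, upper-quartile scaling 6, and no block without replicate 1 of both genotypes (chosen after seeing the data) 9. The cause of these differences was not tested. At P16 the block gave 1403 calls and DESeq2 1123 against 582, and single omissions 149 to 683, the fewest without control replicate 3 (185) and dMF1/2 replicate 3 (149). The interaction was 0 in limma, 7 by DESeq2 and 0 to 2 on single omissions. Component 1 held 40.5% of variance, 40.3% to 53.6% on single omissions. Among named genes, the 96 with a blocked call kept their sign in every setting that tested them (90 were tested with a minimum of 10 reads), and 25 stayed called in the blocked fit without replicate 1, 68 in DESeq2 and 96 in edgeR with the block. At this depth genes near 10 normalized reads allow only large differences to pass.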

Other observations

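Of the 224 genes called at P14 with the replicate block, 78 (34.8%) were members of the 48 lists, which held 9.13% of all genes tested and were chosen with earlier results known. Dio2, Crym, Lox, Emb and H2-Ab1 are outside the lists and were picked after their values were seen. Dio2, the deiodinase that activates thyroid hormone, was higher in dMF1/2 by 0.83 on the log2 scale in the blocked fit, and Crym, which binds thyroid hormone inside cells, was lower (log2 fold change -1.25). Lox, the enzyme that crosslinks collagen, was lower at P14 (-0.72) and had a P16 log2 fold change of 0.01. Emb, the adhesion protein embigin, was lower at P14 (-1.14), with a P16 value of 1.12 (P16 adjusted p = 0.0941), the largest P16 value of the opposite sign among the 136 falls. H2-Ab1, an MHC class II gene, was higher at P14 (1.22) while Cd74, its invariant chain partner, had 102, 31.1 and 73.2 normalized reads in the controls and 71.4, 45.9 and 35.5 in dMF1/2.

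Over 13173 genes tested on both days the log2 fold changes of P14 and P16 had a correlation of 0.553 across genes, a description without a p, since genes are not independent replicates. Of the 88 rises 57 had a larger difference at P16, and of the 136 falls 32 did. The difference between days had an unadjusted p below 0.05 for 22 of the rises and 27 of the falls, and none passed the adjustment. Over all genes such a p was found for 291 of the 6757 positive and 345 of the 6416 negative.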
